A study of Homo sapiens with 9 samples.

Results

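The metallothioneins MT1A, MT1E, MT1F, MT1G, MT1H, MT1M, MT1X and MT2A, the zinc-sensing transcription factor MTF1 and the zinc exporter SLC30A1 were followed across 9 Illumina expression arrays of liver tumours. They were chosen by gene symbol, and the symbols gave 10 genes with 13 probes among 30818 named genes. Of these 10 genes, 9 passed the filter on dim probes (detection p under 0.05 on at least 3 arrays) and were tested among 15388 genes. MT1M lay above background on no array and was not tested.

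The tumours were the human hepatocellular line Hep3B, grown for about 5 weeks in the livers of immunodeficient Nod/Scid mice, and whole-tumour RNA was taken 24 hours after 1 intravenous injection. The injected article was MRX34, which carries a synthetic mimic of the tumour-suppressing microRNA miR-34a in liposomes (3 arrays), the empty liposomes (3 arrays) or the dilution buffer (3 arrays). All groups share the cell line, the host strain and the route, and the labels count empty liposomes and dilution buffer together as controls. Nothing in them says that the arrays of a group are different animals. The p-values below therefore measure only the variation among these 9 arrays, which may be technical.

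Metallothioneins are small cysteine-rich proteins that bind zinc and copper in the cytosol, and liver is a main site of their synthesis. When free zinc rises, MTF1 binds metal response elements in their promoters and raises their transcription, and it does the same for SLC30A1, which moves zinc out of the cell across the plasma membrane. Glucocorticoids and inflammatory signals also raise metallothionein transcription in liver.

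The promoters of 3 members are shown because their transcripts carry most of the values below and because they hold unequal numbers of the metal response element core. They come from RefSeq (GRCh38.p14) and run from 250 bases before to 50 after the annotated start, and capitals mark matches on either strand to TGCACNC or TGCGCNC. MT2A lies at chr16:56608334-56608633 (+), MT1X at chr16:56682220-56682519 (+) and SLC30A1 at chr1:211579112-211579411 (-). The mature sequence of miR-34a-5p, the microRNA that MRX34 mimics, is given with its seed, bases 2 to 8, in capitals.
MT2A: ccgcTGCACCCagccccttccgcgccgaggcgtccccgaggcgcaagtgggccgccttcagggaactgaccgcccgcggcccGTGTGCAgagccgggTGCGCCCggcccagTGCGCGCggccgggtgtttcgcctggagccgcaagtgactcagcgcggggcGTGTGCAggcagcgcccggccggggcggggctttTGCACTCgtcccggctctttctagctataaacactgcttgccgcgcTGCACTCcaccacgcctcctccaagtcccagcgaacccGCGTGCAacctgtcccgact
MT1X: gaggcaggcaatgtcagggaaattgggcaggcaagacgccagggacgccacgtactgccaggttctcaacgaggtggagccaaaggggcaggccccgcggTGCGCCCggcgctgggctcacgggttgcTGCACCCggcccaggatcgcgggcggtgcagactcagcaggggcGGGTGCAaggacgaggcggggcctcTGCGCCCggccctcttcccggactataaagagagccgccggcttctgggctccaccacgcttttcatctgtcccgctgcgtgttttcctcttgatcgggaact
SLC30A1: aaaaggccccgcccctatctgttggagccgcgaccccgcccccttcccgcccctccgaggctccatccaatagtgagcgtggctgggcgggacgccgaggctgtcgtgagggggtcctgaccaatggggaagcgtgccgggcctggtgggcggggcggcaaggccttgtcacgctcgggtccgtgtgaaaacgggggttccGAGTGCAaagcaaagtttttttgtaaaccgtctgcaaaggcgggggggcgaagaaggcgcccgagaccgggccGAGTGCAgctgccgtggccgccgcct
hsa-miR-34a-5p: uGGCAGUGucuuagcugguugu

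MT2A held 8 matches, 5 on the printed strand and 3 on the other, and 0.0199% of 35116 promoters of this length held as many or more. MT1X held 4, a number reached by 0.601% of promoters, and SLC30A1 held 2, both on the other strand, a number reached by 8.60%. MT1H held 8 and MTF1 held 0. At least 1 match was present in 29.6% of all promoters, and a match describes the letters of this window, not a bound site. The table listed 5 of the 10 members; MT1A, MT1E, MT1F, MT1G and MT1M were not in it.

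Between 13690 and 20459 of 43906 named probes per array lay above background, fewest on empty liposomes 1 (31.2%) and most on dilution buffer 2 (46.6%). The tumour markers AFP and GPC3 were bright on all 9 arrays. The liver level, the mean log2 level of the adult hepatocyte genes GNMT and OTC, was 11, 10.05 and 7.73 in MRX34, 13.6, 11.95 and 10.8 in empty liposomes, and 8.21, 10.06 and 14.3 in dilution buffer. It varied within every group and differed by -1.89 log2 units between MRX34 and the 6 controls (exact two-sided permutation test, p = 0.214 over 84 choices of arrays). Among 6 leukocyte markers PTPRC and CD3E were above background on no array. Their summed normalized intensity, with the offset taken off, was 4382 to 5083 in MRX34, 3657 to 4257 in empty liposomes and 3200 to 3941 in dilution buffer. Of 5 endothelial markers, VWF, CDH5, KDR and TEK were above background on no array, and the sums were 94.6 to 101 in MRX34, 71.2 to 85.4 in empty liposomes and 71.4 to 80.1 in dilution buffer. Both sums were thus higher on every MRX34 array than on every control array. Of the single tested markers, only CD68 and PECAM1 separated in this way. PECAM1 was the only endothelial marker tested, and CD68 was the brightest of the tested leukocyte markers. The host was a mouse, and whether these human probes read host cells was not tested. Of 6 stellate cell and fibroblast markers ACTA2 and LUM were above background on no array, and the sums were 1059 to 1284 in MRX34, 1376 to 2262 in empty liposomes and 888 to 1715 in dilution buffer. The summed erythrocyte markers were 14687 to 33549 in MRX34, 23786 to 32095 in empty liposomes and 13181 to 33099 in dilution buffer.

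SLC30A1 was the member that stood apart most clearly by group, on the brighter of its probes. Its log2 level was 8.78, 8.98 and 9.10 in MRX34, 8.05, 7.66 and 7.61 in empty liposomes, and 8.43, 8.62 and 8.25 in dilution buffer. All 3 MRX34 arrays lay above all 6 control arrays, and all 3 empty-liposome arrays lay below all 3 dilution-buffer arrays, so the order was MRX34, dilution buffer, empty liposomes with no overlap between neighbours. The group means were 8.96 ± 0.164 in MRX34, 7.77 ± 0.239 in empty liposomes and 8.43 ± 0.185 in dilution buffer (SD, n = 3 each). Of 11 tested markers of other cell types, 2 separated in the same direction and 0 in the other, beside 4.85% and 2.11% of all genes. CD68 of macrophages ran from 11.35 to 11.46 in MRX34 and from 10.80 to 11.33 in controls. PECAM1 of endothelium ran from 5.71 to 6.01 in MRX34 and from 4.90 to 5.53 in controls, above background on 5 arrays. The other tested leukocyte markers overlapped. CD14 was 7.42 to 8.12 in MRX34 and 7.33 to 8.35 in controls, and LYZ 6.48 to 8.17 and 5.34 to 8.51. The part of CD68 and PECAM1 in the SLC30A1 difference was not tested.

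Against both controls the log2 fold change of SLC30A1 was 0.85 (SE 0.180, 95% interval 0.45 to 1.26), 1.81-fold, with a limma adjusted p of 0.246. It ranked 46 by p among 15388 genes, and the adjusted p missed the threshold of 0.05. Against empty liposomes alone the log2 difference was 1.18 (SE 0.208, adjusted p = 0.235 in limma), and against dilution buffer alone it was 0.52 (SE 0.208, adjusted p = 0.466 in limma). Empty liposomes against dilution buffer gave -0.66 (SE 0.208, adjusted p = 0.766 in limma). These comparisons share arrays, so their values are not independent of each other.

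The second SLC30A1 probe did not give the same group order. Its log2 level was 6.93, 8.25 and 8.27 in MRX34, 6.32, 7.22 and 6.89 in empty liposomes, and 7.86, 8.33 and 7.90 in dilution buffer. MRX34 1 lay among the empty-liposome arrays on this probe and the other MRX34 arrays within the span of the dilution-buffer arrays, so MRX34 overlapped both. The difference of MRX34 from both controls was 0.40 (SE 0.332), from empty liposomes 1.01 and from dilution buffer -0.21, with limma adjusted p of 0.663, 0.523 and 0.861 over all probes. Both probes had all 3 empty-liposome arrays below all 3 dilution-buffer arrays, and over the 9 arrays they correlated at r = 0.64 (exact permutation p = 0.0702, adjusted p = 0.180 over 36 relations, rho = 0.67), but at 0.19 as deviations from their group means. Averaging both probes gave a log2 difference of 0.63 from both controls (adjusted p = 0.406 in limma). Over all alternatives for SLC30A1, not only this average, the limma adjusted p ran from 0.00515 (array weights) to 0.677.

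**Figure D1:**
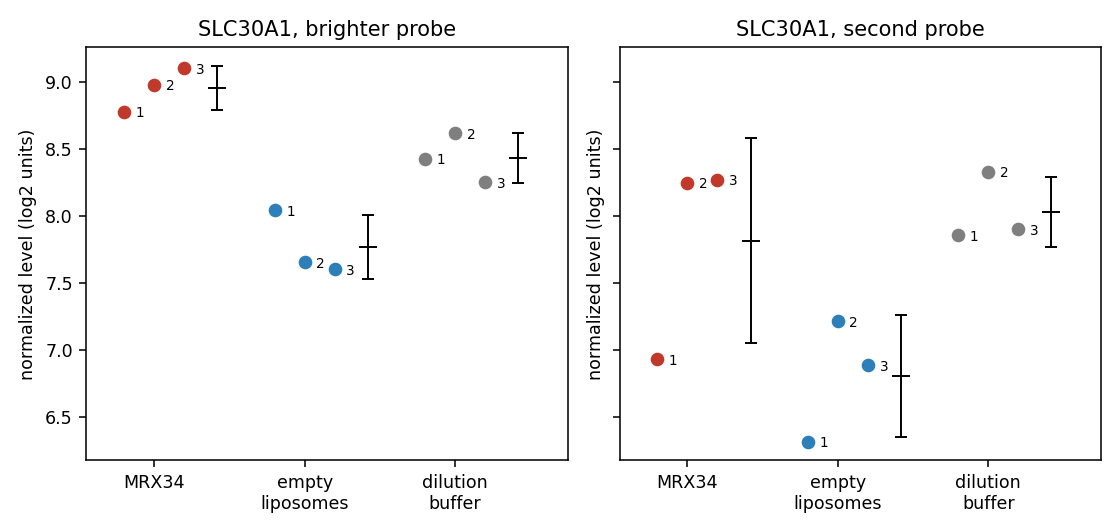
Log2 level of both SLC30A1 probes on each of the 9 arrays by group, with group means and SD (n = 3). On the brighter probe the MRX34 arrays (8.78 to 9.10) lie above every control array, and on the second probe MRX34 1 (6.93) lies below all dilution-buffer arrays.

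MTF1, which switches on metallothionein transcription, had group means that differed by less than the spread between its arrays. Its log2 level averaged 6.76 ± 0.316 in MRX34, 6.84 ± 0.454 in empty liposomes and 6.68 ± 0.113 in dilution buffer (SD, n = 3 each), and its whole range over the 9 arrays was 1.82-fold. MRX34 minus both controls was 0.00 (SE 0.230, 95% interval -0.51 to 0.52; limma adjusted p = 0.997), and the other contrasts lay between -0.07 and 0.16. The sign of these small differences turned with single arrays. Over the 9 arrays MTF1 correlated at r = -0.77 with MT1E, -0.75 with MT2A and -0.74 with MT1X (exact permutation, adjusted p = 0.0773 for each). With MT1G it was -0.54 (adjusted p = 0.281) and with MT1A -0.45 (adjusted p = 0.411), so none of these relations passed. MTF1 correlated with array brightness, the log2 mean intensity, at r = 0.62 (adjusted p = 0.180).

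Most metallothioneins spanned a wider range over the 9 arrays than MTF1, from 3.54-fold for MT1E to 9.67-fold for MT2A among those above background on every array. MT2A, the main human metallothionein of many tissues, had log2 levels of 9.91, 8.81 and 10.18 in MRX34, 11.20, 8.34 and 9.55 in empty liposomes, and 10.68, 11.61 and 10.23 in dilution buffer. Its range ran from empty liposomes 2 at the bottom to dilution buffer 2 at the top, and the empty-liposome arrays alone spanned most of it. The MRX34 arrays all lay below the dilution-buffer arrays and within the span of the empty-liposome arrays.

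The MT2A difference of MRX34 from both controls was -0.63 (SE 0.581, adjusted p = 0.686 in limma), and from dilution buffer -1.21 (SE 0.671, 95% interval -2.71 to 0.29, adjusted p = 0.551 in limma). From empty liposomes it was -0.06 (SE 0.671), and without empty liposomes 1 that value turned to 0.69. In bulk tumour RNA, fewer cells of a type and less RNA per cell cannot be told apart.

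MT1X and MT1G are metallothioneins of the same chromosome 16 cluster. MT1X had log2 levels of 9.27, 8.85 and 9.78 in MRX34, 9.89, 7.17 and 8.00 in empty liposomes, and 9.83, 10.10 and 8.88 in dilution buffer. MT1G had 7.47, 7.67 and 7.62 in MRX34, 7.63, 5.97 and 6.32 in empty liposomes, and 7.81, 8.41 and 7.52 in dilution buffer. Both were lowest on empty liposomes 2 and highest on dilution buffer 2, and the groups overlapped in each comparison. MT1X was 0.32 above both controls (SE 0.534), 0.95 above empty liposomes (SE 0.616) and -0.30 against dilution buffer (SE 0.616). MT1G gave 0.31 (SE 0.348), 0.95 (SE 0.402, adjusted p = 0.532 in limma) and -0.33 (SE 0.402) in the same comparisons. In empty liposomes against dilution buffer MT1X differed by -1.25 (SE 0.616) and MT1G by -1.28 (SE 0.402), with limma adjusted p of 0.766 for both.

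MT1E spanned a smaller range, 3.54-fold. Its log2 level was 7.73, 7.25 and 7.67 in MRX34, 8.45, 6.65 and 6.89 in empty liposomes, and 7.67, 8.48 and 8.26 in dilution buffer. The MRX34 arrays lay inside the span of the empty-liposome arrays, and MRX34 differed from both controls by -0.18 (SE 0.379), from empty liposomes by 0.22 (SE 0.438) and from dilution buffer by -0.58 (SE 0.438). MT1F and MT1H were dim, above background on 2 MRX34 arrays, 0 empty-liposome arrays and 2 dilution-buffer arrays each. Their differences from both controls were 0.17 (SE 0.271) and 0.23 (SE 0.317), and no fold against empty liposomes is given because they were not well above background on any array of that group. The second probes of MT1E and MT1H lay above background on 1 array each and were not tested.

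MT1A correlated over the arrays at r = 0.59 with MT1E (exact permutation, adjusted p = 0.222), 0.43 with MT2A (adjusted p = 0.431), 0.06 with MT1X and 0.05 with MT1G (adjusted p = 0.935 for both). Its log2 level was 10.48, 9.54 and 9.92 in MRX34, 11.95, 10.68 and 10.58 in empty liposomes, and 10.05, 11.08 and 12.41 in dilution buffer. Every MRX34 array lay below every empty-liposome array, while dilution buffer 1 lay among the MRX34 arrays. MRX34 minus both controls was -1.14 (SE 0.497, 95% interval -2.26 to -0.03, adjusted p = 0.446 in limma), minus empty liposomes -1.09 (SE 0.574) and minus dilution buffer -1.20 (SE 0.574).

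MT1A was highest on dilution buffer 3 and empty liposomes 1, the arrays with the highest liver level. Across the 9 arrays it correlated with the liver level at r = 0.85 (exact permutation p = 0.00483, adjusted p = 0.0380 over 36 relations) and rho = 0.83 (adjusted p = 0.0744), and at r = 0.74 without MRX34 3 and dilution buffer 3, the arrays farthest from the median liver level. With the liver level as a covariate the MT1A difference from both controls was -0.50, and without empty liposomes 1 and dilution buffer 3 it was -0.62, against -1.14 with all arrays. The same control arrays were the dimmest, with a log2 mean intensity of 7.35 and 7.96 beside 8.34 to 9.27 on the others. MT1A correlated with that brightness at r = -0.69 (exact permutation p = 0.0419, adjusted p = 0.126, rho = -0.52), and at 0.02 without both arrays. With brightness as a covariate the MT1A difference was -0.81. The parts of the liver level and of brightness in the MT1A difference were not tested beyond these values. Whether the probes of MT1A, GNMT and OTC read RNA of the mouse host liver was not tested. The SLC30A1 difference was 0.81 with the liver covariate, 0.85 with brightness and 0.88 without the same arrays, against 0.85.

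**Figure D2:**
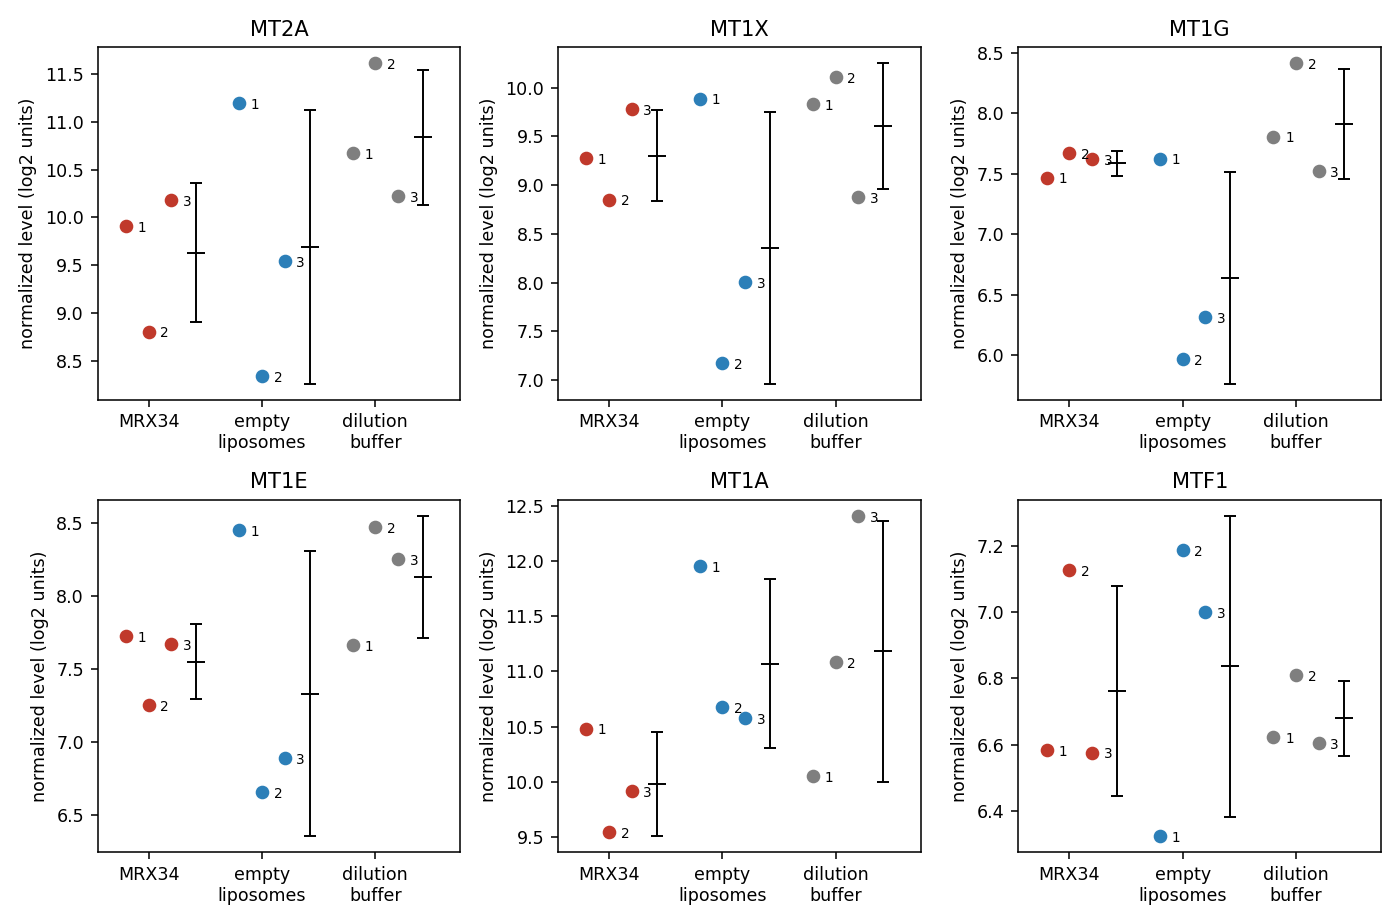
Log2 level of MT2A, MT1X, MT1G, MT1E, MT1A and MTF1 on each array by group, with group means and SD (n = 3). Empty liposomes 2 is lowest for MT2A (8.34), MT1X (7.17), MT1G (5.97) and MT1E (6.65), while MT1A is lowest on MRX34 2 (9.54).

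Levels of several metallothioneins moved together over the arrays. MT1X and MT2A correlated at r = 0.86 (exact permutation, adjusted p = 0.0335 over 36 relations) and rho = 0.93, and still at r = 0.83 without the 2 arrays farthest from the median. MT1G and MT1X correlated at r = 0.93 (exact permutation, adjusted p = 0.0141), which was 0.61 without empty liposomes 2 and 3, and rho was 0.78 (adjusted p = 0.124). MT1G and MT2A correlated at r = 0.75 (exact permutation, adjusted p = 0.0773), which did not pass. MT1E correlated with MT2A at r = 0.88 (exact permutation, adjusted p = 0.0335), and with MT1X and MT1G at 0.82 each (adjusted p = 0.0380 for both). Without empty liposomes 2 and dilution buffer 2 these values were 0.76, 0.64 and 0.60, and rho was 0.87, 0.83 and 0.55 over all arrays. The metallothionein mRNAs are close in sequence, and the probes' own sequences were not used here. Signal from a sister gene's transcript and shared variation therefore cannot be told apart. Whether the metallothionein probes also read mouse host transcripts was not tested. SLC30A1 correlated with MT1G at r = 0.73 (exact permutation, adjusted p = 0.0773), with MT1X at 0.63 (adjusted p = 0.180), with MT1E at 0.34 (adjusted p = 0.540), with MT2A at 0.20 (adjusted p = 0.720) and with MT1A at -0.45 (adjusted p = 0.411), so none of these relations passed. Without empty liposomes 2 and 3 the value for MT1G was 0.01 and that for MT1X -0.16. As deviations from the group means the values were 0.87 for MT1G, 0.81 for MT1X, 0.64 for MT1E, 0.71 for MT2A and 0.02 for MT1A, a description over the same 9 arrays.

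**Figure D3:**
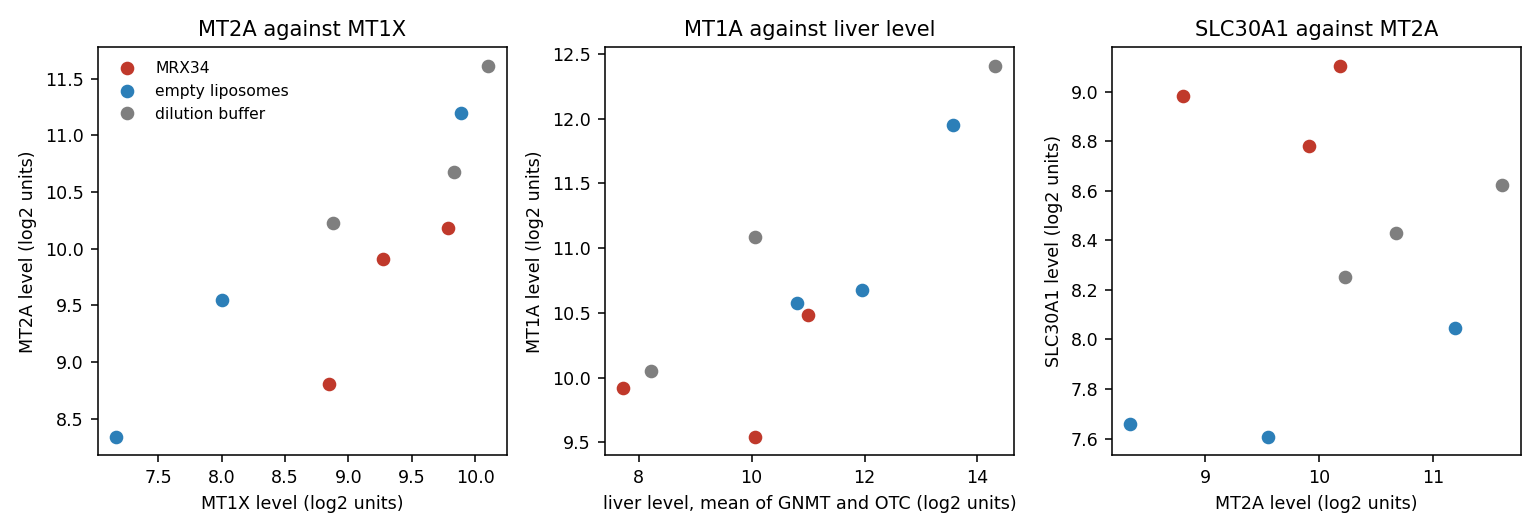
Scatter of log2 levels over the 9 arrays, coloured by group, for member pairs and for MT1A against the liver level. MT1X follows MT2A (r = 0.86), MT1A follows the liver level (r = 0.85), and SLC30A1 is layered by group against MT2A (r = 0.20).

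Against both controls, 6 of the 9 tested members had higher and 3 lower mean levels, and limma called 0 of them at an adjusted p under 0.05, as it called 0% of all genes. At an unadjusted p under 0.05, 2 members passed, SLC30A1 higher and MT1A lower, where 11.1% of all genes did, 6.88% higher and 4.24% lower. The groups did not overlap for 1 member, SLC30A1, against 6.96% of genes, 4.85% higher and 2.11% lower. The 7 metallothioneins had a median log2 fold change of 0.17, 4 higher and 3 lower, beside 0.04 over all genes. Over the 5 above background on all 9 arrays the median was -0.18, 2 higher and 3 lower, so the sign of the median rests on the dim MT1F and MT1H. With arrays weighted by their quality, limma called SLC30A1 (adjusted p = 0.00515) beside 1465 genes, against 0 without weights.

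Against empty liposomes, limma called 0 members and 0% of genes, and 2 members, SLC30A1 and MT1G, passed the unadjusted threshold beside 9.34% of genes, 6.28% higher and 3.06% lower. SLC30A1 (higher) and MT1A (lower) did not overlap, beside 14.4% of genes, 9% higher and 5.41% lower. Of the 5 metallothioneins above background on all 9 arrays, 3 were higher and 2 lower, with a median of 0.22. Array weights made SLC30A1 pass among 267 genes called. Against dilution buffer, limma called 0 members and 0% of genes, and SLC30A1 alone passed the unadjusted threshold, beside 10.1% of genes, 5.83% higher and 4.31% lower. There SLC30A1 (higher) and MT2A (lower) did not overlap, beside 21.3% of genes, 13% higher and 8.31% lower. All 7 metallothioneins had lower mean levels in MRX34, with a median of -0.33. The dim MT1F turned sign in 5 of 23 alternatives, to 0.050 without background correction and 0.20 at most. The dim MT1H turned in 2 of 23, to 0.26 at most. The 5 metallothioneins above background on all 9 arrays were all lower, with a median of -0.58. Array weights made 5 members pass, MT1A, MT1E, MT1G and MT2A lower and SLC30A1 higher, among 2828 genes called.

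Empty liposomes had lower mean levels than dilution buffer for the 5 metallothioneins above background on all 9 arrays, with a median of -1.15 beside -0.03 over all genes, although MT1A turned to 0.50 without dilution buffer 3. Limma called 0 members and 0% of genes. MT1G and SLC30A1 passed the unadjusted threshold, both lower, beside 5.76% of genes, 2.74% higher and 3.03% lower. With array weights MT1G passed among 6 genes called. SLC30A1 alone did not overlap, beside 11.7% of genes, 6.11% higher and 5.55% lower. These genes were measured on the same arrays and are not independent.

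**Figure D4:**
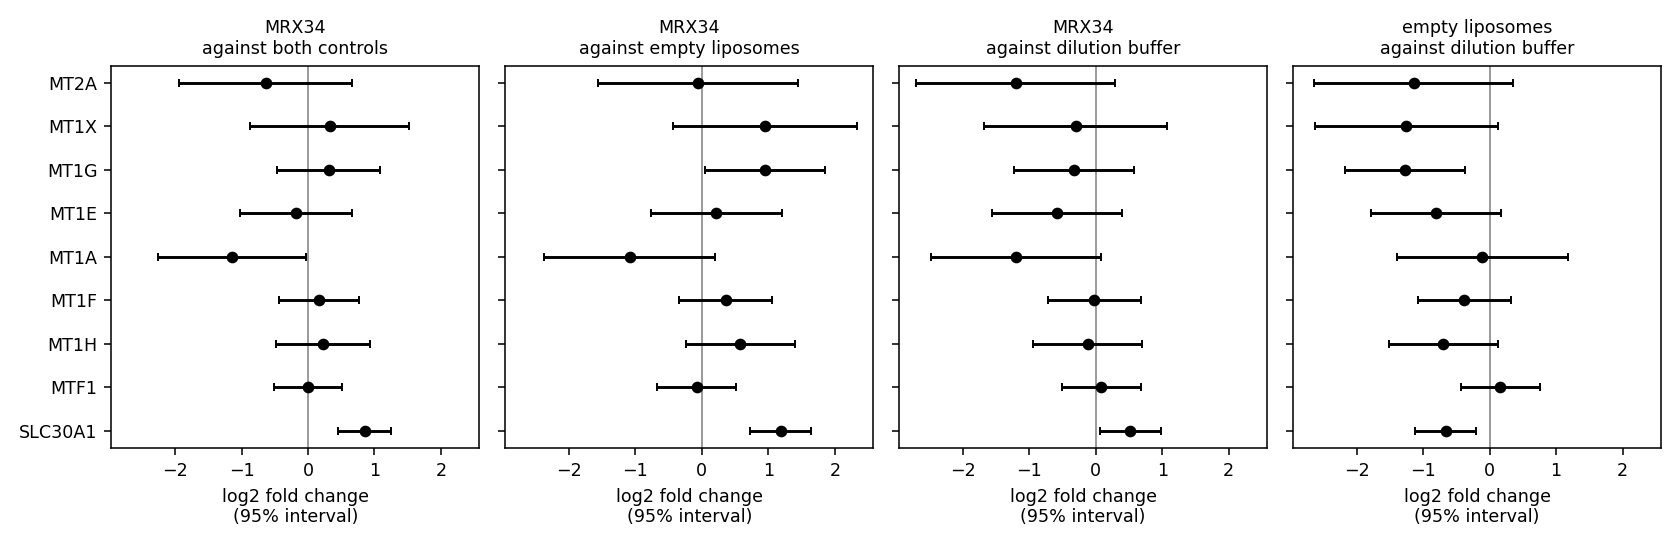
Log2 fold change of each tested member with its 95% interval in the 4 comparisons. The interval of SLC30A1 against both controls (0.45 to 1.26) excludes 0, and those of MT2A (-1.93 to 0.67) and MT1X (-0.87 to 1.52) include it.

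Of 14 other metallothionein loci, 8 were on the array and 2 were tested. MT1IP differed by 0.16 and MT1P3 by -0.20 between MRX34 and both controls. Of the 9 other genes of the SLC30 family, 6 were tested, 4 higher and 2 lower with a median of 0.17. At an unadjusted p under 0.05, 0 of these 6 passed in limma, beside 11.1% of all genes. Those with the smallest p were SLC30A10, at 0.55 (SE 0.257), and SLC30A7, a zinc loader of the secretory pathway, at 0.45 (SE 0.201).

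Of 14 zinc importers of the SLC39 family 12 were tested, 7 higher and 5 lower with a median of 0.11. SLC39A8, an importer of zinc and manganese, was 0.87 higher (SE 0.249, adjusted p = 0.339 in limma) and SLC39A1 differed by -0.44 (SE 0.185). Both lists gave 0 calls by limma. Among 11 copper-handling genes, all tested, 7 were higher and 4 lower with a median of 0.09, and ATOX1, a copper chaperone, differed by 0.36 and SCO1, a mitochondrial copper chaperone, by 0.34.

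Of 10 glucocorticoid-responsive genes 8 were tested, 4 higher and 4 lower with a median of 0.05, and 0 were called by limma. At an unadjusted p under 0.05, 2 were higher and 1 lower, beside 6.88% and 4.24% of all genes. TSC22D3, the glucocorticoid-induced leucine zipper, differed by 0.83, the transcription factor KLF9 by 0.72 and the zinc finger factor ZBTB16, named here after its value was seen, by -0.67. Of 11 antioxidant genes of the NRF2 pathway 10 were tested, 4 higher and 6 lower with a median of -0.09, and 0 were called. TXNRD1, thioredoxin reductase, differed by 0.65.

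The genes whose levels were most like the metallothionein level, the mean of the centred log2 levels of the 7 tested genes, were G6PC3 (r = 0.89), RHBDD2 (0.87), SPOCK2 (0.87), TESC (0.86), DCAF12 (0.84) and KYAT1 (0.83), over 9 arrays. For SLC30A1 they were TMEM30B (r = 0.97), VAMP3 (0.95) and COX20 (0.94). For MTF1 they were SPP1 (r = 0.99, above background on 4 arrays), GSPT2 (0.97) and KLHL42 (0.97). These arrays share groups and scaling, and the genes were the highest of 12520 tested genes that are no members and have no placeholder name, so the values are a description.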

How the data were processed

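Per the file headers, the deposited table holds an intensity and a detection p-value for each probe and array. From the values, the authors' intensities had already been quantile normalized but still held their background (the 9 sorted columns agreed within 1.66 units, from 50.3 to 47789). A second deposited table of background-subtracted, unscaled intensity served as alternative source. The scanner software, and how the authors normalized, is not given in the sources used here.

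In limma 3.58.1 (R 4.3.3), normexp with the negative-control level inferred from detection p-values removed background, 16 units were added, which shrinks fold changes of dim probes, and the arrays were quantile normalized before taking log2. Of 47322 probes, 43906 carried a symbol; 4625 symbols were updated through RefSeq names of GRCh38.p14 and 12241 had no match and stayed as deposited. The detection filter (p under 0.05 on 3 or more of the 9 arrays) left 19802 probes, and the brightest stood for each of 15388 genes. A linear model of the 3 group means was fitted to all arrays, with two-sided moderated tests, both controls weighted equally, p adjusted by Benjamini-Hochberg across genes, and calls made under 0.05. The fit was tested on simulated data. Correlations used exact permutation in Python 3.11.15 with scipy 1.17.1.

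The members and lists were chosen with earlier results of these data known, as were GNMT and OTC for the liver level. All members are named, with up to 2 genes of each list by smallest p and the genes most like the members by Pearson r. Equal replicate numbers of MRX34 and empty liposomes had deviations correlated at 0.44, 0.49 and 0.28, and unequal numbers of these groups at -0.57 to 0.0066. Unequal numbers of empty liposomes and dilution buffer reached 0.34 and 0.32, so values of this size do not establish a pairing. No label states a pairing. The unpaired fit is reported. Values of a few listed genes are not reported here. The number of arrays limits precision. Alternatives varied the scaling and background steps, the source table, the filter, the choice of probe, the variance model, weights, covariates, pairing and the arrays used.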

Additional observations from a re-analysis of the deposited data

How the results depend on the processing

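Of 884 log2 fold changes of members under the alternatives, 833 kept direction and side of the threshold, 43 turned sign and 8 newly passed. All 8 came with array weights, which ranged from 0.262 (empty liposomes 1) to 4.65 (MRX34 3) and 8.13 (dilution buffer 2), so that 2 arrays carried most of the fit; the cause was not tested. Members called were then 1 (SLC30A1, adjusted p = 0.00515 in limma, with 0.00515 to 0.677 over all alternatives) against both controls, 1 against empty liposomes, 5 against dilution buffer (MT1A, MT1E, MT1G, MT2A and SLC30A1) and 1 between empty liposomes and dilution buffer (MT1G). Genes called were then 1465, 267, 2828 and 6 in the same order.

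Against both controls, genes called were 2 without background correction, 2 when normexp ignored the detection p-values (offset 50), 3 with scale normalization, 2 among genes above background on all 9 arrays and 1 with a trended robust variance, against 0, and 3 against empty liposomes with that variance. Leaving out 1 array gave 0 to 1 genes against both controls (1 without dilution buffer 1) and 0 to 2 against empty liposomes (2 without empty liposomes 2).

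Sign changes were of small differences. Scale normalization turned MT2A (0.090) and MTF1 (0.036) against empty liposomes and MTF1 (-0.0068) between the controls. It also moved the median of all genes to 0.14 against empty liposomes and -0.18 between the controls, with 64.3% and 29.1% of genes higher, against 55.0% and 46.9% with quantile normalization. No background correction turned MT1F against dilution buffer (0.050), as did the other normexp setting (0.062). Array weights turned MTF1 against both controls (-0.26) and dilution buffer (-0.17), and MT2A against empty liposomes (0.56). The liver covariate turned MT1E (0.052), MT1F (-0.089), MT1H (-0.038) and MTF1 (-0.059) against both controls. The brightness covariate turned MT1E (0.030) and MTF1 (-0.13) there and MT2A against empty liposomes (0.31). Without both arrays of highest liver level, an alternative chosen after seeing the data, MT1E (0.13) and MTF1 (-0.14) turned against both controls, MT2A against empty liposomes (0.69) and MT1A between the controls (0.060).

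Leaving out single arrays gave, against both controls, -0.35 to 0.10 for MT1E, -0.027 to 0.28 for MT1F and -0.18 to 0.10 for MTF1. Against empty liposomes it gave -0.12 to 0.78 for MT1E, -0.74 to 0.69 for MT2A and -0.33 to 0.10 for MTF1. Against dilution buffer it gave -0.41 to 0.20 for MT1F, -0.51 to 0.26 for MT1H and -0.10 to 0.18 for MTF1, and between the controls -0.68 to 0.50 for MT1A and -0.018 to 0.41 for MTF1. The cause of these changes was not tested. The replicate block changed no call (SLC30A1 against both controls 0.85, adjusted p = 0.319 in limma). The fit on only the groups compared was not run against both controls, where it is the same fit.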
